A study of Mus musculus with 2 samples.

Results

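Transcripts of the erythropoietin receptor, its kinase and transcription factors and a set of their reported targets were followed through lineage-depleted mouse bone marrow. The set was chosen by name and holds 9 genes, of 27706 gene columns in all, and each of the 9 was present in both count tables: the receptor Epor, the kinase Jak2, the factors Stat5a and Stat5b, the feedback inhibitors Cish, Socs2 and Socs3, the kinase Pim1 and the survival gene Bcl2l1. The hypoxia library came from ICR mice that spent 13 days in a chamber at a pressure of 52.93 kPa, given as that of 5000 m altitude, and 19.5% oxygen. The control library came from ICR mice killed on arrival, so time, age and handling cannot be told apart from hypoxia. Mice of both groups are labelled as 7 to 8 weeks old, magnetic beads removed lineage-positive cells from their marrow, and how many mice each library pools was not given in the sources used here. Each group had 1 library, so no test between groups was possible, and every 95% interval given is an exact interval of the counting error alone.

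Erythropoietin is the hormone that keeps red cell precursors alive and dividing, and the kidney makes more of it when oxygen is short. Its receptor has no kinase activity of its own: it carries JAK2, which phosphorylates the receptor tail and the STAT5 proteins that dock there. STAT5 then enters the nucleus and switches on genes that include Cish and the Socs genes, whose proteins damp the same receptor, and Pim1 and Bcl2l1, whose proteins favour survival. The counts give transcript abundance, not phosphorylation or protein.

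The promoters of 3 members are shown because the results turn on these genes. Each is the window from 250 bases before to 50 bases after the start, 5' to 3' on the gene's strand, from RefSeq on GRCm38.p6, where 8 of the 9 members matched an entry and Socs2 did not. Capitals mark matches to TTCNNNGAA, the core letters of STAT5 elements, in Cish, and to GATAA, the core letters of GATA factor elements, in Epor, where it reads TTATC because it lies on the other strand. Both motifs were searched on both strands.
Cish, chr9:107296409-107296708, plus strand: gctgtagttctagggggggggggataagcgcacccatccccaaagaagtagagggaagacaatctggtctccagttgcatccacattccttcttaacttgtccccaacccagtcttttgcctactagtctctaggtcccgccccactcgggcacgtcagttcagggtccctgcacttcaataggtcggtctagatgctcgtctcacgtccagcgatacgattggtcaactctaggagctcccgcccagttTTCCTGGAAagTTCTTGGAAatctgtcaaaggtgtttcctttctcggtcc
Epor, chr9:21963527-21963826, minus strand: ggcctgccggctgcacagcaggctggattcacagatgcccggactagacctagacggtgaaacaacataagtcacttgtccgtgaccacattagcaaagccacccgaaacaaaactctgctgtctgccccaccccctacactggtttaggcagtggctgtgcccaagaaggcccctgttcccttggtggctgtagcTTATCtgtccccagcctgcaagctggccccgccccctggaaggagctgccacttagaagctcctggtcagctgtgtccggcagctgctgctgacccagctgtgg
Pim1, chr17:29490535-29490834, plus strand: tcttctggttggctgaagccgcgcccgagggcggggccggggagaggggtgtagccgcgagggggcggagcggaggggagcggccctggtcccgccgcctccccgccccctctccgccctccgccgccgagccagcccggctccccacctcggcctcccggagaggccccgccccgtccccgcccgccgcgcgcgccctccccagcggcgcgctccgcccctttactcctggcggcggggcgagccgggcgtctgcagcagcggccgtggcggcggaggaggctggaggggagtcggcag
The Cish window holds TTCNNNGAA at bases 251 to 259 and again at bases 262 to 270, and a GATAA at bases 23 to 27 that is not capitalised. At least 1 TTCNNNGAA is found in 8.3% of the 32851 promoters in the table, and 2 or more in 0.457%. The Epor window holds GATAA at bases 197 to 201, as do 25.4% of promoters somewhere in theirs. The Pim1 window shown, and a further Pim1 window, hold neither motif, and no match says only that these letters are absent from these bases. Of the other members, Socs3 has 1 TTCNNNGAA at bases 97 to 105, and a first Bcl2l1 window has the same motif with 1 more base in its spacer at bases 247 to 256, a form found in 6.95% of promoters, and GATAA at bases 211 to 215. A match is a description of the letters and not a measured site.

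After filtering, 6280 hypoxia cells and 3917 control cells remained, with median depths of 21344 unique molecules (UMIs) per hypoxia cell and 32156 per control cell. The 2 tables shared 23 cell indices. Clusters were named from marker genes, without using the 9 genes to form them, and 11 of 27 clusters were erythroid-like, led by genes such as Car1, Ermap, Rhag and the globins. They held 51.8% of hypoxia cells (3253) and 55.5% of control cells (2175), so the libraries labelled as stem and progenitor cells were largely erythroid, and no cluster took the stem cell name. The 10 erythroid clusters with at least 50 cells of 1 library drew at least 97.6% of their cells from that library, 5 from hypoxia and 5 from control. Erythroid cells were therefore ordered by a score of late minus early markers and divided into 5 ranges of equal size, from range 1 (562 hypoxia and 524 control cells) to range 5 (887 hypoxia and 199 control cells). Since 16.41% of erythroid cells lay within 0.05 of a boundary, the ranges are sections of a continuum and not cell types. Within ranges the libraries also differed: Hba-a1, an alpha globin gene, was in range 1 at 41.3 CPM in hypoxia against 10.2 in control (the gene's UMIs scaled to a common total of the group's UMIs) and at 7049 CPM in hypoxia against 7366 in control in range 5. Range 5 was not matched in other late markers, with the beta globin gene Hbb-bt at 1617 CPM in hypoxia against 3613 in control and Slc4a1, which encodes the anion exchanger band 3, at 1077 CPM in hypoxia against 718 in control. Hbb-bt was also lower in hypoxia in ranges 3 and 4 (ratios 0.390 and 0.517) and higher in range 1 (2.20). Hba-a1 was higher in hypoxia outside the erythroid cells as well, in groups that should not make it. It was at 46.6 CPM in hypoxia against 12.4 in control in basophil/mast-like cells. In granulocyte-monocyte progenitor-like cells it was at 22.2 CPM in hypoxia against 2.70 in control. Whether the range 1 difference in globins is one of stage was not tested. The part of these differences in the members' values was not tested.

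In erythroid-like cells the transcripts for the receptor, the kinase and both STAT5 factors were higher in hypoxia than in control. Cish, Socs2, Pim1 and, by less, Bcl2l1 were lower. Epor was at 175 CPM in hypoxia against 136 in control, Jak2 at 78.8 CPM in hypoxia against 40.8 in control and Pim1 at 51.0 CPM in hypoxia against 119 in control. Cish and Socs2 were scarce in both libraries. With a change counted from 1.5-fold after adding 10 CPM to each level, 8 of the 9 members had the 50 UMIs needed to be measured, 1 was higher (Jak2) and 1 was lower (Pim1). Over all 11852 genes measured, 2.73% passed that limit as higher and 1.48% as lower. The median log2 ratio of the 8 members was 0.03, against 0.02 for all genes. With 1 CPM added, Cish and Socs2 passed as well, which made 3 members lower, where 4.24% of all genes were, and 1 higher, where 8.97% were.

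Epor, which encodes the hormone's receptor (chr9:21958897-21963506, minus strand), was counted in 15774 UMIs of the hypoxia erythroid cells, 175 CPM (172 to 177), and in 12315 UMIs of the control cells, 136 CPM (134 to 139). The ratio was 1.28 (1.25 to 1.31), and the 2 intervals did not overlap. Along the score, Epor was at 142, 169, 183, 185 and 187 CPM in ranges 1 to 5 of hypoxia, and at 111, 126, 141, 159 and 184 CPM in the same ranges of control. Hypoxia was above control in ranges 1 to 4, and in range 5 the intervals overlapped, with a ratio of 1.02 (0.949 to 1.09) that turned below 1 after thinning (log2 ratio -0.21). The control library thus reached in range 5 the level that hypoxia had from range 3 on. Neighbouring ranges 3, 4 and 5 of hypoxia did not differ beyond counting error. After each cell was thinned to 5000 UMIs, 57.8% of hypoxia and 48.4% of control erythroid cells held an Epor molecule. Without thinning the shares were 95.4% in hypoxia and 97.9% in control. Granulocyte-monocyte progenitor-like cells, which should lack the receptor, held one in 0.888% of thinned hypoxia cells and 0.855% of thinned control cells, at median depths of 23560 UMIs in hypoxia and 31480.5 UMIs in control, beside 27394 UMIs in hypoxia and 41449 in control for erythroid-like cells. Gata1, an erythroid factor known to activate Epor, was at 401 CPM in hypoxia against 291 in control, and its ratio was 1.31 in range 5, where that of Epor was 1.02. Klf1, another erythroid factor, was at 259 CPM in hypoxia against 275 in control, and the part of either factor in the Epor difference was not tested. Per cell, where the hypoxia library was shallower, Epor was lower in hypoxia, at 4.85 UMIs in hypoxia against 5.66 in control.

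Jak2, the kinase bound to the receptor (chr19:29251828-29313080, plus strand), was the member that passed as higher. It stood at 78.8 CPM (77.0 to 80.6) in hypoxia and 40.8 CPM (39.5 to 42.2) in control, a ratio of 1.93 (1.85 to 2.01). Jak2 was at 62.5, 65.8, 74.5, 84.6 and 102 CPM in ranges 1 to 5 of hypoxia, and at 32.1, 36.5, 42.2, 48.1 and 61.9 CPM in those of control. The intervals were apart in every range, the ratio lay between 1.65 and 1.95, and both libraries had their highest level in range 5. Jak2 passed 1.5-fold as higher in each of the 5 ranges, where 3.16%, 2.89%, 2.36%, 2.42% and 3.16% of genes did. The call was lost in range 3 with leading genes ranked against all other cells (log2 ratio 0.51), in range 4 with thinned cells (0.55) and in range 5 as a mean of per-cell CPM (0.57). Per cell, Jak2 was also higher in the shallower hypoxia library, at 2.19 UMIs in hypoxia against 1.696 in control. In the 5 hypoxia clusters Jak2 ran from 66.3 to 101 CPM, and in the 5 control clusters from 32.3 to 58.5 CPM. Each of these clusters came almost wholly from 1 library, so they are not replicates and restate the difference between the 2 libraries.

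Stat5a (chr11:100859351-100885169, plus strand) and Stat5b (chr11:100780731-100850724, minus strand) encode near-identical transcription factors from neighbouring genes, and how reads that fit both were assigned was not given in the sources used here. Stat5a was at 103 CPM in hypoxia against 82.1 in control (ratio 1.26, 1.22 to 1.30), and Stat5b at 75.1 CPM in hypoxia against 64.7 in control (ratio 1.16, 1.12 to 1.203). Per cell both were lower in hypoxia, Stat5a at 2.87 UMIs in hypoxia against 3.41 in control and Stat5b at 2.08 UMIs in hypoxia against 2.69 in control. Stat5a was at 125, 123, 122, 103 and 49.5 CPM in ranges 1 to 5 of hypoxia and at 97.4, 87.3, 86.1, 67.4 and 36.8 CPM in control. Stat5b was at 87.6, 83.8, 77.1, 74.5 and 55.4 CPM in hypoxia and at 77.7, 71.1, 62.7, 52.8 and 36.0 CPM in control. Both factors were thus lowest in range 5, where Epor and Jak2 were highest, and hypoxia was above control in each range. Neither gene passed 1.5-fold in any range with 10 CPM added, as reported. The ratio without that addition was 1.53 (1.42 to 1.64) for Stat5a in range 4 and 1.54 (1.32 to 1.80) for Stat5b in range 5. Both genes passed under some alternatives. With leading genes ranked against all other cells Stat5a passed in range 2 (log2 ratio 0.59) and range 4 (0.92) and Stat5b in range 3 (0.82). Stat5a also passed with thinned cells in range 4 and range 5 (0.75), and with 1 CPM added Stat5a passed in range 4 and Stat5b in range 5 (0.61). For both factors the ratio was smaller over all erythroid-like cells than in most ranges, and range 5, where both were lowest, held 887 hypoxia and 199 control cells.

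**Figure D1:**
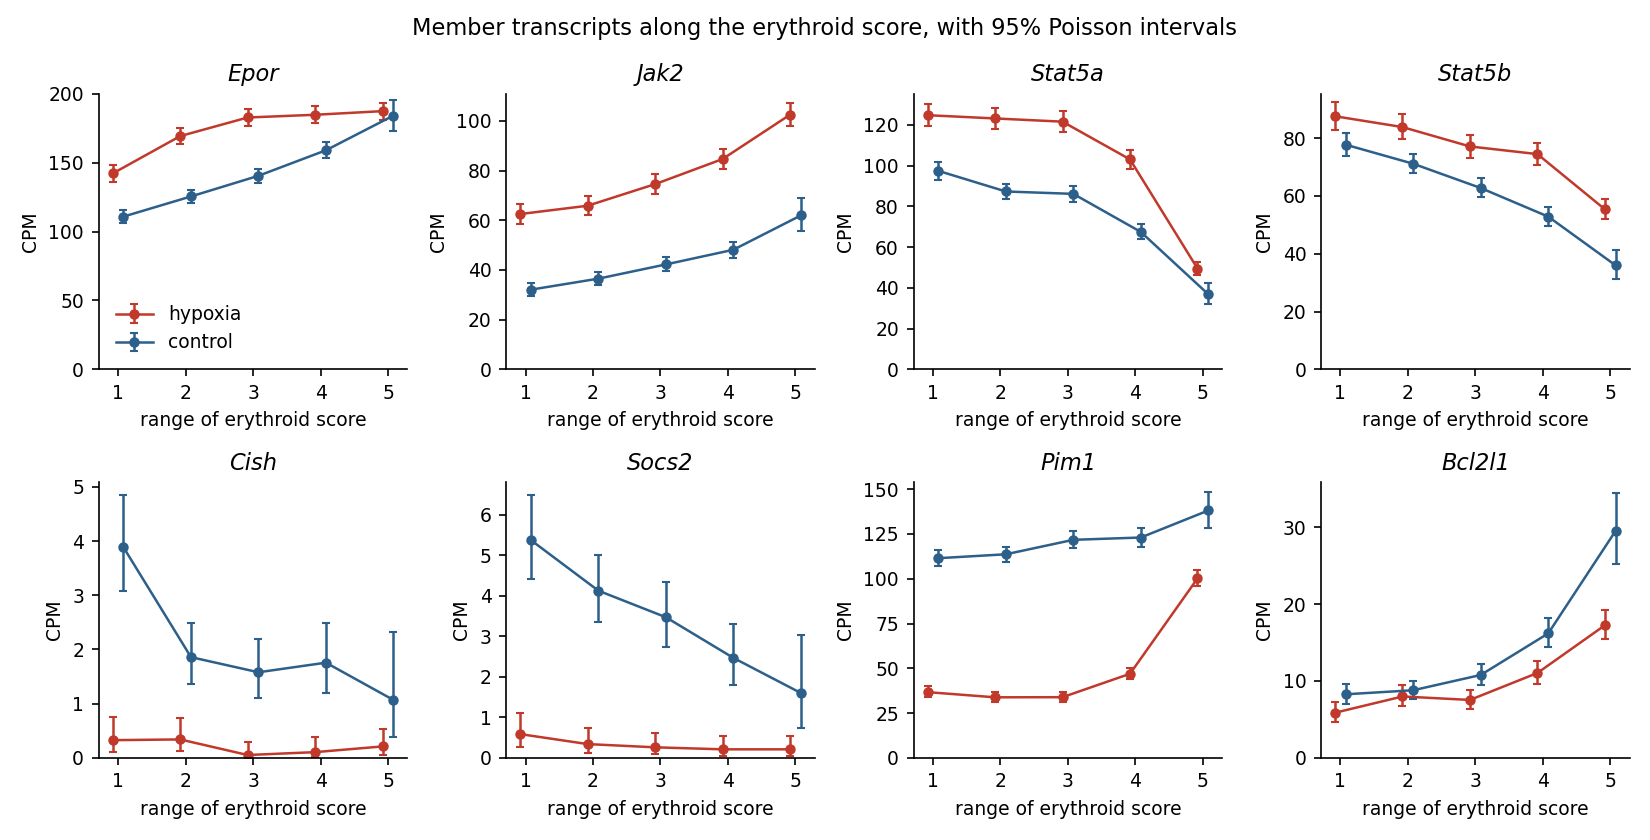
CPM (vertical axis, from 0) of 8 members in the 5 ranges of the erythroid score (horizontal axis), in hypoxia (red) and control (blue), with bars for exact 95% Poisson intervals. Epor, Jak2, Stat5a and Stat5b lie higher in hypoxia, with overlapping intervals for Epor in range 5 (187 CPM in hypoxia against 184 in control), and Cish, Socs2 and Pim1 lie lower, with Pim1 nearest in range 5 (100.2 CPM in hypoxia against 138 in control). Bcl2l1 lies lower as well, with overlapping intervals in ranges 1 and 2, as for Cish in range 5.

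The feedback inhibitors were counted in few molecules. Cish, an SH2 protein that binds the activated receptor (chr9:107296026-107302784, plus strand), was counted in 18 UMIs of hypoxia erythroid cells and 196 UMIs of control erythroid cells, 0.199 CPM in hypoxia against 2.17 in control, although their totals were nearly equal at 90310205 UMIs in hypoxia and 90319628 in control. The ratio was 0.0918 (0.0533 to 0.149). The molecules lay in 18 of 3253 hypoxia cells and 172 of 2175 control cells, so no single cell carried the difference. Ranges 1 to 5 held 5, 6, 1, 2 and 4 Cish UMIs in hypoxia and 78, 45, 35, 32 and 6 in control. Control was highest in range 1, at 3.88 CPM, where hypoxia had 0.326 CPM. Among clusters, the control cluster with the earliest score had 7.53 CPM, the other control clusters 1.45 to 2.47 CPM, and the hypoxia clusters 0.151 to 0.350 CPM.

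Socs2, which restrains growth hormone and other cytokine receptors (chr10:95385362-95417180, minus strand), followed the same course in these cells. It was counted in 28 UMIs of hypoxia and 339 UMIs of control erythroid cells, 0.310 CPM in hypoxia against 3.75 in control, a ratio of 0.0826 (0.0541 to 0.122). Ranges 1 to 5 held 9, 6, 5, 4 and 4 UMIs in hypoxia and 108, 100, 77, 45 and 9 in control, and the ratio's interval lay below 1 in each range. On the log2 scale with 10 CPM added, Cish came to -0.25 and Socs2 to -0.42, and with 1 CPM added to -1.40 and -1.86. Both transcripts are rare enough that, over all erythroid-like cells, the addition decided whether they passed. Other choices also moved the call in smaller groups. Socs2 in range 1 (log2 ratio -0.54) passed in 4 of 12 alternatives, and Cish in basophil/mast-like cells (-0.50) in 2 of 12. Socs3, an inhibitor that acts on JAK2 directly (chr11:117966079-117970047, minus strand), had 6 UMIs in hypoxia and 3 in control. A difference in Socs3 was not detectable at this depth, where a count of 3 corresponds to 0.0332 CPM.

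Pim1, a serine/threonine kinase (chr17:29490753-29496112, plus strand), was counted in 4610 UMIs of hypoxia and 10709 UMIs of control erythroid cells. The levels were 51.0 CPM (49.6 to 52.5) in hypoxia and 119 CPM (116 to 121) in control, a ratio of 0.431 (0.416 to 0.446). Per cell this was 1.42 UMIs in hypoxia against 4.92 in control. In ranges 1 to 5 Pim1 was at 36.7, 33.8, 33.9, 46.9 and 100.2 CPM in hypoxia and at 111, 114, 122, 123 and 138 CPM in control. The ratio was 0.329, 0.297, 0.278, 0.382 and 0.725. Hypoxia was below control in every range, and Pim1 passed the 1.5-fold limit in ranges 1 to 4 and not in range 5, where it passed as a mean of per-cell CPM (log2 ratio -0.90, against -0.43 from summed UMIs). The background of genes passing as lower was 1.86%, 1.41%, 1.42%, 1.43% and 2.11% in ranges 1 to 5. In range 4 the call was lost (log2 ratio -0.42) when clusters were named from leading genes ranked against all other cells. The hypoxia cluster led by globin genes had 116 CPM, inside the 109 to 128 CPM of the control clusters, and the other 4 hypoxia clusters had 26.4 to 73.8 CPM. Without the globin-led clusters the log2 ratio was -1.35, against -1.07 with them.

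Hsp90aa1, a heat-shock chaperone gene, moved with Pim1 between the libraries, at 2123 CPM in hypoxia against 5097 in control in erythroid-like cells, and its part in the Pim1 difference was not tested. In range 5, where Pim1 was nearest to control, the Hsp90aa1 ratio was 0.387, the lowest of the 5 ranges.

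Bcl2l1, which encodes the survival protein BCL-XL (chr2:152780668-152831728, minus strand), was at 10.1 CPM in hypoxia against 11.9 in control over all erythroid-like cells, a ratio of 0.847 (0.775 to 0.926). It was at 5.86, 7.98, 7.53, 11.04 and 17.2 CPM in ranges 1 to 5 of hypoxia and at 8.27, 8.79, 10.8, 16.2 and 29.5 CPM in those of control. Both libraries had their highest level in range 5, and the ratio there was 0.584 (0.483 to 0.708). The ratio over all erythroid-like cells lay nearer to 1 than that of any range but range 2. Range 5, where Bcl2l1 was highest, held 887 hypoxia and 199 control cells. The interval of the ratio included 1 in range 2 and lay below 1 in the others. No range passed 1.5-fold as reported, where the log2 ratio of range 5 was -0.54. Range 5 passed in 4 of 13 alternatives: as a mean of per-cell CPM, which gave the lowest value (-1.34), with thinned cells, with 1 CPM added and with a total that left out globin, mitochondrial and ribosomal protein genes. In range 2 the log2 ratio was -0.06 as reported and 0.31 with thinned cells.

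Outside the erythroid cells, 8 other groups had at least 50 cells in each library: 7 named groups and a cluster left unnamed and called by its leading genes Dntt, Cd34 and Mpo. Epor was at 0 to 11.6 CPM in 6 of them and higher in the remaining pair. In megakaryocyte-erythroid progenitor-like cells (178 hypoxia and 147 control cells) it was at 98.4 CPM in hypoxia against 41.5 in control (ratio 2.37, 1.76 to 3.24), and 6.38% of genes measured in these cells passed as higher. Erythroid and progenitor genes moved with it there: Car1, a carbonic anhydrase of early erythroid cells, was at 2516 CPM in hypoxia against 572 in control, and the progenitor factor Gata2 at 416 CPM in hypoxia against 1183 in control. Their part in the Epor difference was not tested, and with cells classed by marker score the Epor log2 ratio was 0.53, short of 1.5-fold. In megakaryocyte-like cells Epor was at 71.1 CPM in hypoxia against 47.3 in control (ratio 1.503, 1.25 to 1.80), which did not pass with 10 CPM added but did as a mean of per-cell CPM (log2 ratio 0.61). Monocyte-like cells had 54 Epor UMIs in hypoxia and 4 in control, 3.19 CPM in hypoxia against 0.857 in control, beside 28.1 CPM in hypoxia against 7.28 in control of Hba-a1, which these cells should not make.

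Jak2 was highest in basophil/mast-like cells, at 276 CPM in hypoxia against 258 in control (ratio 1.07, 0.975 to 1.17), an interval that includes 1. Monocyte-like cells had 63.3 CPM in hypoxia against 31.5 in control (ratio 2.01, 1.69 to 2.41) and passed as higher, where 2.49% of genes did. Of the 8 groups in which Jak2 was measured, erythroid-like cells included, these and the erythroid-like cells were the 2 that passed. Megakaryocyte-like cells had 97.7 CPM in hypoxia against 62.6 in control, and megakaryocyte-erythroid progenitor-like cells 107 CPM in hypoxia against 97.8 in control. Jak2 passed in megakaryocyte-like cells in 3 of 14 alternatives (log2 ratio up to 0.66, against 0.57 as reported), in megakaryocyte-erythroid progenitor-like cells with classes from a marker score (0.65) and in the cluster led by Dntt, Cd34 and Mpo with thinned cells (0.60). Stat5a passed in 0 of 7 groups and Stat5b in 0 of 9 as reported. In monocyte-like cells Stat5a passed in 3 of 14 alternatives, with a log2 ratio of 1.04 after thinning against 0.47 as reported. The share of genes passing as higher was 1.36% in granulocyte-monocyte progenitor-like, 3.07% in basophil/mast-like, 13.7% in neutrophil-like, 2.75% in megakaryocyte-like and 6.92% in T/NK/ILC-like cells, and 1.99% in the cluster led by Dntt, Cd34 and Mpo. Bcl2l1 was high in megakaryocyte-like cells, at 82.1 CPM in hypoxia against 70.2 in control, and in T/NK/ILC-like cells, at 83.9 CPM in hypoxia against 52.9 in control from 29 UMIs in hypoxia and 18 in control, with intervals of the ratio that include 1 in both.

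**Figure D2:**
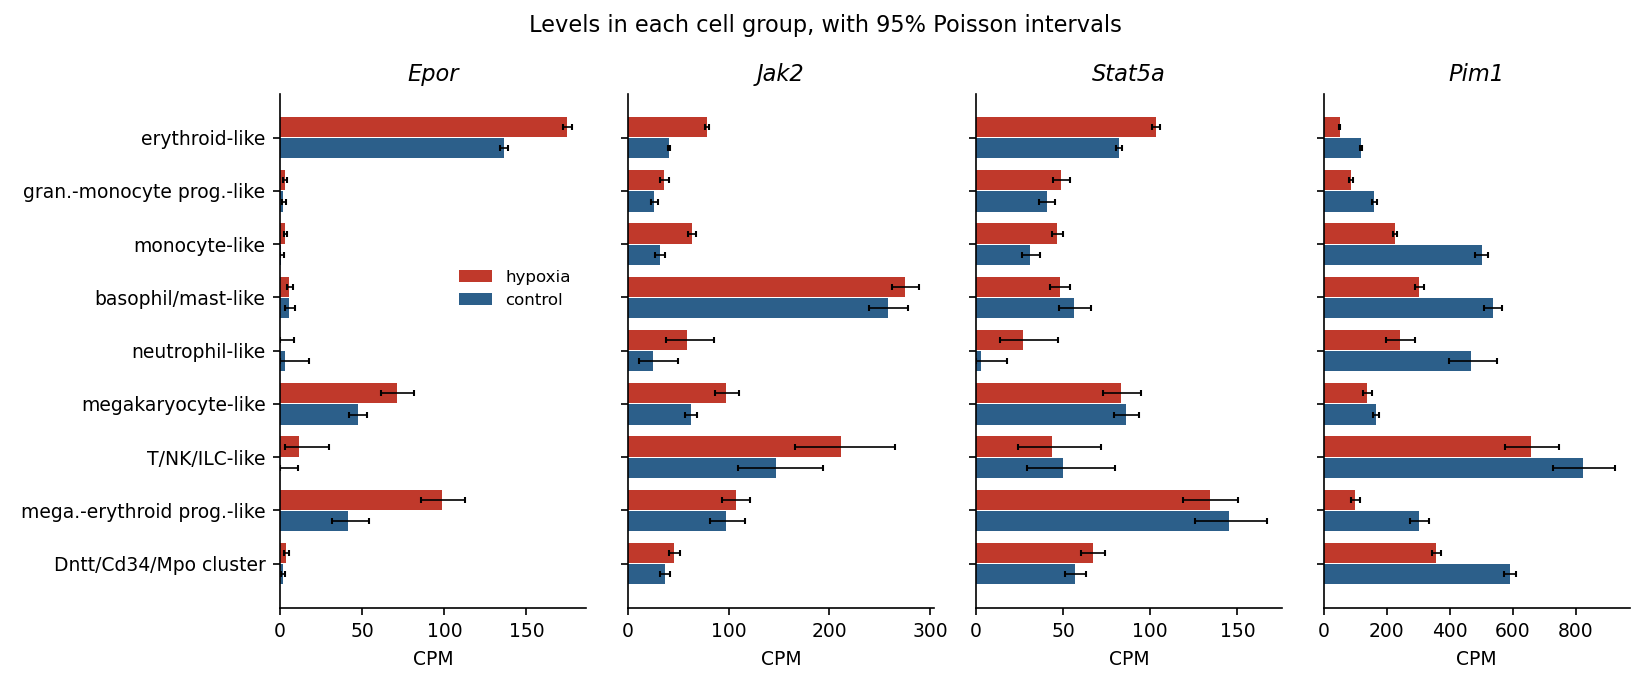
CPM (horizontal axis, from 0) of Epor, Jak2, Stat5a and Pim1 in 9 cell groups, hypoxia (red) above control (blue), with exact 95% Poisson intervals. Epor is highest in erythroid-like cells (175 CPM in hypoxia against 136 in control), Jak2 in basophil/mast-like cells and Pim1 in T/NK/ILC-like cells.

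Pim1 was lower in hypoxia in all 9 groups and passed 1.5-fold in 7. It was at 86.5 CPM in hypoxia against 161 in control in granulocyte-monocyte progenitor-like cells, where 1.16% of genes passed as lower. Monocyte-like cells had 226 CPM in hypoxia against 501 in control (background 1.43%), basophil/mast-like cells 304 CPM in hypoxia against 538 in control (2.88%) and neutrophil-like cells 241 CPM in hypoxia against 469 in control (5.44%). Megakaryocyte-erythroid progenitor-like cells had 100.3 CPM in hypoxia against 303 in control, a ratio of 0.331 (0.279 to 0.391), where 8.56% of genes passed. With cells classed by marker score the log2 ratio there was -0.91, against -1.51 as reported, and the Gata2 ratio of 0.352 and Car1 ratio of 4.40 in these cells stand beside it, their part not tested. The cluster led by Dntt, Cd34 and Mpo had 357 CPM in hypoxia against 591 in control (1.51%). Pim1 did not pass in megakaryocyte-like cells, at 139 CPM in hypoxia against 166 in control (2.15%), or in T/NK/ILC-like cells, at 657 CPM in hypoxia against 823 in control (7.47%). In megakaryocyte-like cells the Hsp90aa1 ratio was 0.351, the lowest of the 9 groups, while the Pim1 ratio was 0.836 (0.742 to 0.939).

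The low Cish of hypoxia erythroid cells had a counterpart in megakaryocyte-erythroid progenitor-like cells, with 2 UMIs in hypoxia and 16 in control, a ratio of 0.0790 (0.00882 to 0.336). Elsewhere the Cish ratio was nearer to 1. It was above 1 in granulocyte-monocyte progenitor-like cells, with 12 UMIs in hypoxia and 5 in control (ratio 2.20, 0.723 to 7.98), an interval that includes 1. Basophil/mast-like cells had 5.85 CPM in hypoxia against 12.4 in control (ratio 0.473, 0.284 to 0.788), the cluster led by Dntt, Cd34 and Mpo had 6.52 CPM in hypoxia against 10.4 in control, and megakaryocyte-like cells had 5.33 CPM in hypoxia against 5.15 in control. T/NK/ILC-like cells carried the highest Cish and Socs2 levels, 34.7 CPM in hypoxia against 44.1 in control and 81.1 CPM in hypoxia against 103 in control, with intervals of the ratio that include 1. Socs2 was at 7.97 CPM in hypoxia against 11.9 in control in megakaryocyte-erythroid progenitor-like cells and at 11.4 CPM in hypoxia against 16.2 in control in megakaryocyte-like cells, again with intervals that include 1. In granulocyte-monocyte progenitor-like cells Socs2 had 14 UMIs in hypoxia and 9 in control (ratio 1.43, 0.576 to 3.74). Its interval lay below 1 in basophil/mast-like cells, at 2.92 CPM in hypoxia against 6.74 in control, and in monocyte-like cells, with 5 UMIs from 919 hypoxia cells and 6 from 204 control cells. Socs3 was found mainly outside the erythroid cells, with 11 UMIs in hypoxia against 32 in control in the cluster led by Dntt, Cd34 and Mpo, 9 in hypoxia against 13 in control in monocyte-like cells, and 1 in hypoxia against 19 in control in megakaryocyte-like cells. It was lower in hypoxia beyond counting error in these 3 groups, with ratios of 0.350 (0.159 to 0.713), 0.191 (0.0720 to 0.483) and 0.120 (0.00288 to 0.754). Granulocyte-monocyte progenitor-like cells had 0 Socs3 UMIs in hypoxia and 7 in control. The highest Socs3 levels were in neutrophil-like cells, at 20.3 CPM in hypoxia against 41.2 in control (ratio 0.492, 0.186 to 1.24). T/NK/ILC-like cells had 8.68 CPM of Socs3 in hypoxia against 32.3 in control (ratio 0.269, 0.0481 to 1.02). The intervals of the ratio include 1 in both. In no group did Socs3 reach the minimum of UMIs needed for a log2 ratio, so all its ratios rest on few molecules.

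**Figure D3:**
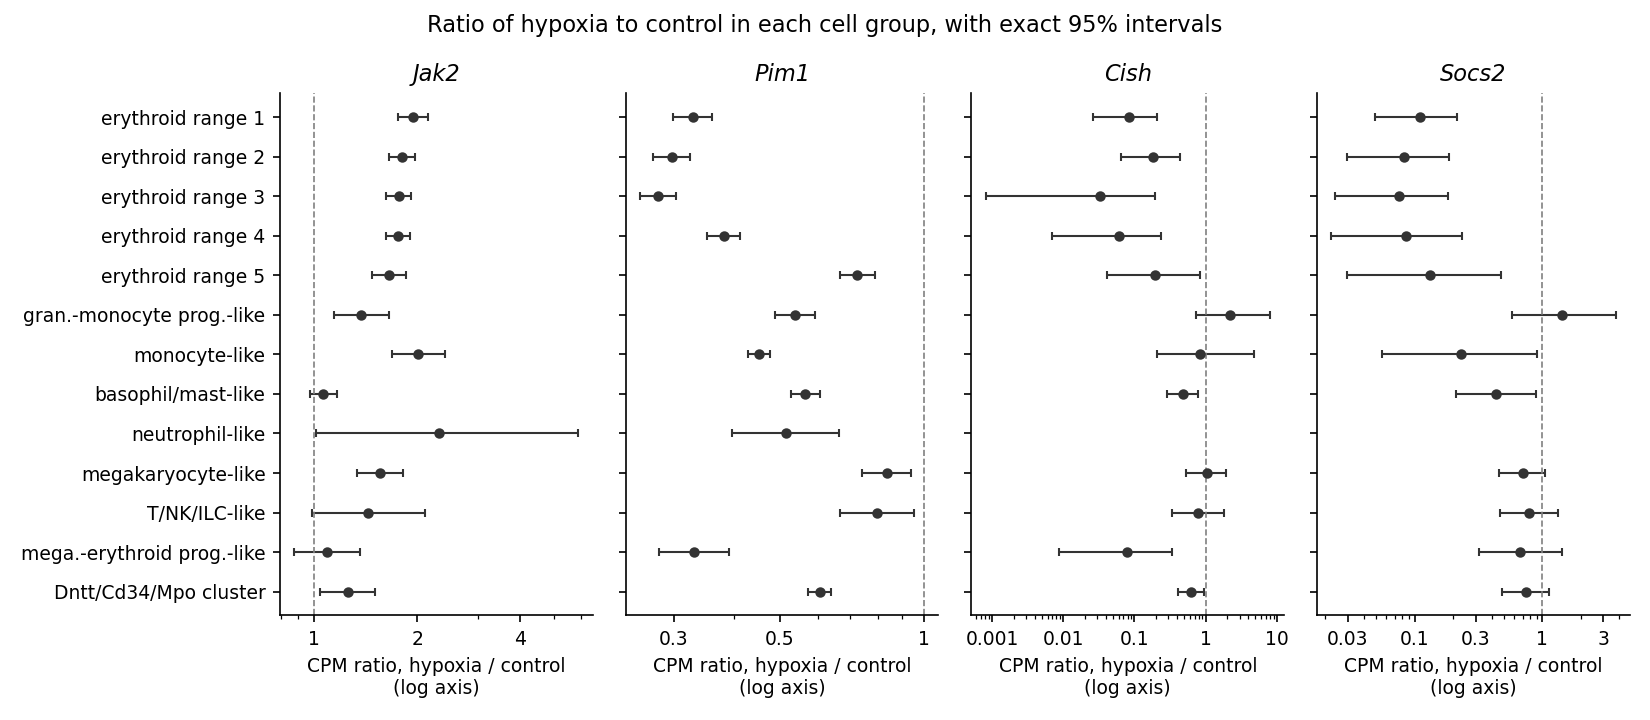
Ratio of hypoxia to control CPM (horizontal log axes, dashed line at 1) of Jak2, Pim1, Cish and Socs2 in the 5 erythroid ranges and 8 other cell groups, with exact 95% intervals; groups with no UMI in a library have no point. The Cish intervals lie below 1 in the 5 erythroid ranges and in 3 of the other groups, and those of Pim1 lie below 1 throughout.

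Over the 8 named groups of both libraries, 16 points that share libraries and differ in depth, the 5 genes whose log2 levels were most like those of Epor, by Pearson correlation over 9816 genes, were Cyth3 (0.979), Klf1 (0.965), Slc38a5, Spire1 and Nipa1. Those most like Cish were Gimap5 (0.967), Eya2, Zbtb4, Rora and Gimap6, and those most like Pim1 were Junb (0.923), Zfp36 (0.905), Prex1, Smad4 and Nfatc1. These are descriptions of shared pattern only.

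The rest of the pathway was read from 5 lists in erythroid-like cells, where 2.73% of all genes measured passed as higher and 1.48% as lower. Of 13 cytokine and other receptors 8 were measured and 0 passed in either direction, with Kit, the stem cell factor receptor, at 205 CPM in hypoxia against 166 in control. Scarce receptors could differ without passing once 10 CPM was added. Csf2rb had 72 UMIs in hypoxia and 26 in control (ratio 2.77, 1.75 to 4.52). Lepr had 19 UMIs in hypoxia and 59 in control (ratio 0.322, 0.181 to 0.548). Of 8 other JAK kinases and STAT factors 7 were measured and 0 passed, and Jak1 was at 172 CPM in hypoxia against 175 in control (ratio 0.987, 0.966 to 1.01). All 21 adaptors and kinases were measured, 2 passed as lower and 0 as higher. These were Irs2, an adaptor of the insulin receptor, at 5.005 CPM in hypoxia against 20.5 in control, and Gab2, an adaptor for phosphatidylinositol 3-kinase, at 7.00 CPM in hypoxia against 16.7 in control. The Irs2 ratio lay below 1 in each range, and the Gab2 ratio was 0.404, 0.385, 0.427, 0.616 and 1.62 in ranges 1 to 5, the last from 104 UMIs in hypoxia and 19 in control with an interval (0.985 to 2.79) that includes 1. Of 18 brakes on the pathway 17 were measured, 1 passed as higher, the phosphatase Ptprc (CD45) at 20.9 CPM in hypoxia against 8.98 in control, and 0 as lower. The list medians ran from -0.04 to 0.18 on the log2 scale, beside 0.02 for all genes.

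A list of 27 symbols held other genes reported to respond to STAT5 or erythropoietin, with Fam132b an older symbol of Erfe. The list was not split into genes reported as induced and genes reported as repressed. Of the symbols, 22 were measured, 2 passed as lower and 1 as higher, beside 1.48% and 2.73% of all genes. Ccnd2, which encodes cyclin D2, was at 34.6 CPM in hypoxia against 186 in control, a ratio of 0.186 (0.179 to 0.193). Its ratio was 0.300, 0.212, 0.153, 0.147 and 0.307 in ranges 1 to 5. Podxl, a surface sialomucin, was at 0.819 CPM in hypoxia against 6.83 in control. Ccnd3, which encodes cyclin D3, was at 599 CPM in hypoxia against 324 in control, but its ratio was 0.763, 0.891, 0.887, 1.07 and 1.33 in ranges 1 to 5 and range 5 held 887 hypoxia and 199 control cells. Myc was at 201 CPM in hypoxia against 208 in control and Mcl1, a survival gene of the Bcl2 family, at 217 CPM in hypoxia against 218 in control. Bcl6, which encodes a transcriptional repressor, was at 3.50 CPM in hypoxia against 0.709 in control (ratio 4.94, 3.76 to 6.57) and did not pass with 10 CPM added. Erfe, the erythroid hormone that lowers hepcidin, was at 1.51 CPM in hypoxia against 5.17 in control (ratio 0.291, 0.239 to 0.353) and did not pass with 10 CPM added. Other scarce genes of the list also differed in ratio without passing. Among them were Osm (0.394, 0.336 to 0.462) and Egr1 (0.437, 0.356 to 0.535), lower in hypoxia, and Irf1 (2.52, 2.02 to 3.15), higher.

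**Figure D4:**
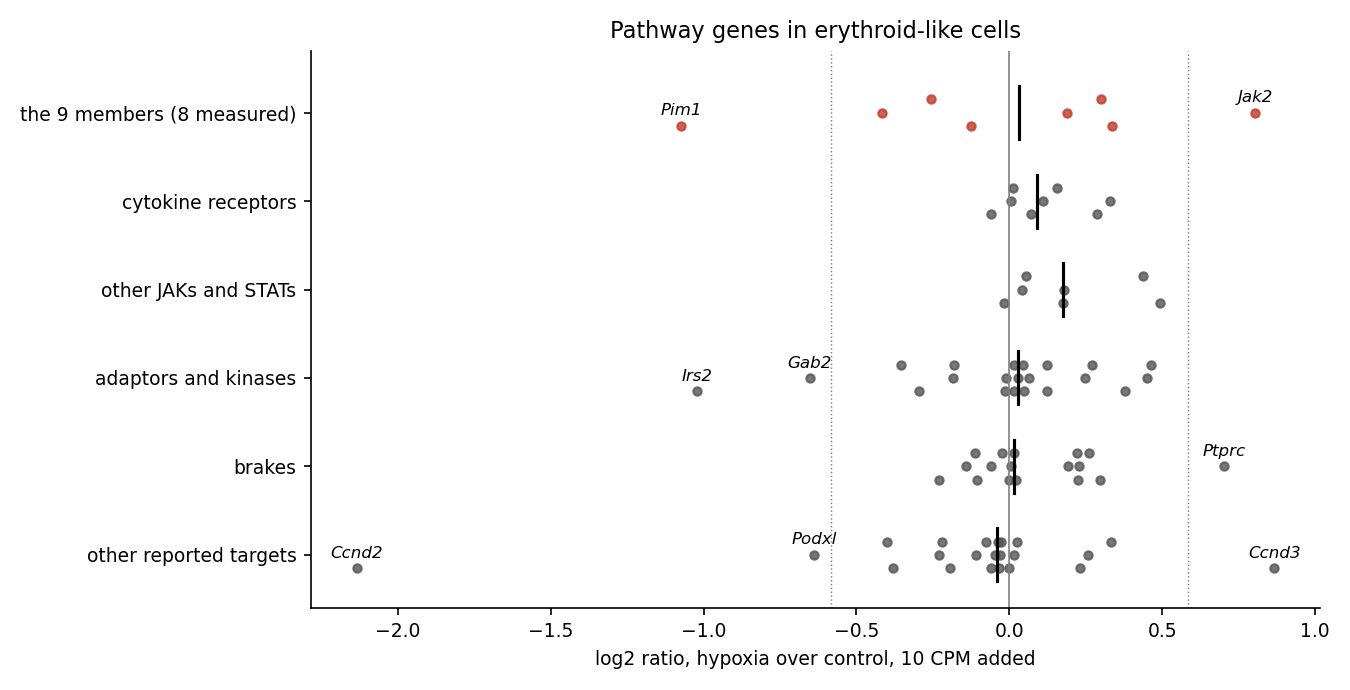
Log2 ratio of hypoxia over control with 10 CPM added (horizontal axis) for each measured gene of the 9 members and 5 pathway lists in erythroid-like cells; black bars mark list medians and dotted lines 1.5-fold. Most genes lie between the dotted lines, with Pim1, Irs2, Gab2, Ccnd2 and Podxl to the left and Jak2, Ptprc and Ccnd3 to the right.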

How the data were processed

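Single-cell RNA was measured in 2 libraries, 1 hypoxia and 1 control. The deposited values are raw UMI counts per cell and gene with no normalization, and per the file headers the authors used version 1.7.1 of the BD WTA Rhapsody Analysis Pipeline, the GRCm38 genome and the GENCODE vM19 annotation. The submitters' processing notes name Bowtie2. The rule by which cells were called was not given in the sources used here. In all, 6406 hypoxia cells with 137504361 UMIs and 3956 control cells with 121415081 UMIs were deposited.

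Cells with at least 500 UMIs, 200 genes and under 20% mitochondrial UMIs were kept, and Scrublet (scanpy 1.11.5) removed 112 hypoxia and 33 control doublets (1.748% and 0.8342%). Counts scaled to 10000 per cell, 2000 variable genes, 30 principal components and 15 neighbours fed Leiden clustering (leidenalg 0.10.2, resolution 1.0). The variable genes left out the members, the pathway lists, stress, immediate early, histocompatibility, globin, mitochondrial, ribosomal, sex-linked and library-specific genes. Clusters were named by the class that had most of its markers (3 or more) in the 30 leading genes, and had no name after a tie or when a different class led the top 10. The tie rule was chosen after the data were seen. Of the 2 monocyte-like clusters, 1 had as many granulocyte-monocyte progenitor markers as monocyte markers among its top 10 genes.

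UMIs were summed per group and scaled to CPM. Log2 ratios have 10 CPM added, which understates low genes, and need 50 UMIs over both libraries. Intervals are exact Poisson or, for shares, Clopper-Pearson, at 95%. The ratio and its interval were tried on simulated Poisson counts drawn from the summed erythroid-like UMIs. Those counts hold no variation between cells, mice or libraries, so the trial says nothing on such variation. The members and lists were chosen with earlier results of these data known. Named genes were the 9 members, pathway genes past 1.5-fold in erythroid-like cells (at most 10), and the 5 genes most like Epor, Cish and Pim1. Kit, Csf2rb, Lepr, Jak1, Myc, Mcl1, Bcl6, Erfe, Osm, Egr1 and Irf1 were named after their values were seen. So were the context genes Gata1, Klf1, Gata2, Car1, Hba-a1 and Hsp90aa1. Gene positions are from GENCODE vM21. Python 3.11.15, R 4.3.3 and edgeR 4.0.16 (TMM factors) were used.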

Additional observations from a re-analysis of the deposited data

How the results depend on the processing

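Across 16 alternatives with values, 14 planned and 2 chosen after seeing the data, 1060 of 1077 recomputed member ratios kept their sign, 43 changed side of 1.5-fold, and 0 called values reversed. In erythroid-like cells Pim1 stayed past 1.5-fold in all 16 alternatives, from -1.35 to -0.88 on the log2 scale, and Jak2 in all 16, from 0.59 to 0.93. The median log2 ratio of the members in erythroid-like cells was -0.055 with TMM factors and -0.032 as a mean of per-cell CPM. It was 0.11 with cells thinned to 5000 UMIs, 0.34 with leading genes ranked against all other cells, and 0.29 as a mean over the 5 ranges (added). Cish, a lower member, had no value in any of the last 3, and Socs2, another lower member, had none in the last 2. Those medians therefore cover fewer members and are not a like comparison with the reported median. The TMM factors alone came to a log2 shift of -0.12. Genes that are low beside the 10 CPM added moved less, such as Cish from -0.255 to -0.267. With TMM factors Epor was at 0.22, Jak2 at 0.70 and Pim1 at -1.18. With 1 CPM added, 3 members were lower, and of the pathway genes, whose counts were added to the recomputation after the data were seen, 7 were lower and 6 higher, against 4 and 2 as reported. Thinning left 2 pathway genes lower, and leaving out the globin-led clusters (added) left 1 higher. Ranking leading genes against all other cells left 1618 hypoxia and 299 control erythroid cells and made 2 members higher, the second being Stat5a at 0.69. Apart from the members missing from some medians, the cause of these shifts was not tested.

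No paired analysis was possible because each group had 1 library, which also leaves no replicate to omit. Erythroid clusters by number gave no ratio, since 0 of 11 had 50 cells of both libraries. Depth limits Cish, Socs2 and Socs3, and the neutrophil-like and T/NK/ILC-like groups, whose median depths were 2583 to 3875 UMIs.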
